A study of Homo sapiens with 4 samples.

Results

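The genes described here are 57 receptor tyrosine kinase genes, taken by symbol from a list of the human receptor tyrosine kinases, among 20144 protein-coding genes of the GENCODE annotation on hg19. All 57 symbols matched a gene. To each gene were assigned the peaks that overlapped its body or the 5 kb on each side of it. CUT&RUN, in which an antibody directs a nuclease to a chromatin protein and the DNA it releases is sequenced, was performed on SW-13 cells, a human adrenocortical carcinoma line in which both ATPases of the SWI/SNF remodeler, BRG1 and BRM, are silenced. Stable derivatives of this line carried a doxycycline-inducible, V5-tagged BRG1 that was either wild type (iBRG1, 2 replicates) or had the helicase/SANT-associated domain deleted (i∆HSA, 2 replicates). All 4 samples received doxycycline for 24 h and were profiled with anti-V5. The groups differed in the construct and also in the cell clone, as the paper collected its data from individually selected clones. Construct and clone cannot be told apart. The replicates were not separate in the peak lists, of which there was 1 per construct, of 24212 (iBRG1) and 25371 (i∆HSA) peaks. No value below therefore has a replicate error, no difference between the constructs could be tested, and the read depth is unknown. The lists hold no expression values, so the labelled cell type could not be checked against markers.

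Receptor tyrosine kinases are single-pass membrane proteins whose extracellular part binds a growth factor or another ligand and whose intracellular kinase then phosphorylates tyrosines on the receptor and its partners. Adaptors such as GRB2 and SHC1 read these phosphotyrosines and pass the signal to the RAS, PI3K and PLC-gamma pathways. The family controls growth, survival, migration and tissue patterning, and several members, among them EGFR, ERBB2, MET and ALK, are oncogenes when amplified, mutated or fused.

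The 57 genes held 73 peaks of the iBRG1 list and 85 of the i∆HSA list, and no peak was counted at more than 1 of them. At least 1 iBRG1 peak was found at 29 genes (50.9%, 95% Wilson interval 38.3 to 63.4), where 44.0% of all protein-coding genes had one. At least 1 i∆HSA peak was found at 38 genes (66.7%, 53.7 to 77.5), against 49.1% of protein-coding genes. The intervals cover counting error only. Peaks of both lists were present at 23 genes (40.4%, against 30.0%), iBRG1 peaks alone at 6, i∆HSA peaks alone at 15 and no peak at 13. For the counts of 6, 15 and 13 no share of other genes was computed, so they are values only. A peak was called shared where 1 bp or more of it was covered by the opposite list, and 14 genes had a shared peak (24.6%, 15.2 to 37.1, against 16.2%). The genes with a shared peak were EGFR, ERBB4, IGF1R, PDGFRB, FLT3, MUSK, MET, AXL, EPHA4, EPHB3, DDR1, DDR2, ALK and STYK1. More i∆HSA than iBRG1 peaks were counted at 28 genes (49.1%, 36.6 to 61.7, against 28.1% of protein-coding genes) and more iBRG1 peaks at 9 (15.8%, 8.54 to 27.4, against 22.3%), with equal numbers above 0 at 7. Among genes of like length, described next, the shares were 33.4% and 30.7%, and with 1 list per construct the difference was not tested. The peaks were unevenly spread. The 5 genes with most peaks held 42 of the 73 iBRG1 peaks (57.5%) and 31 of the 85 i∆HSA peaks (36.5%). In the iBRG1 list 17 genes had a single peak and 5 had 3 or more, and in the i∆HSA list these numbers were 17 and 10.

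**Figure D1:**
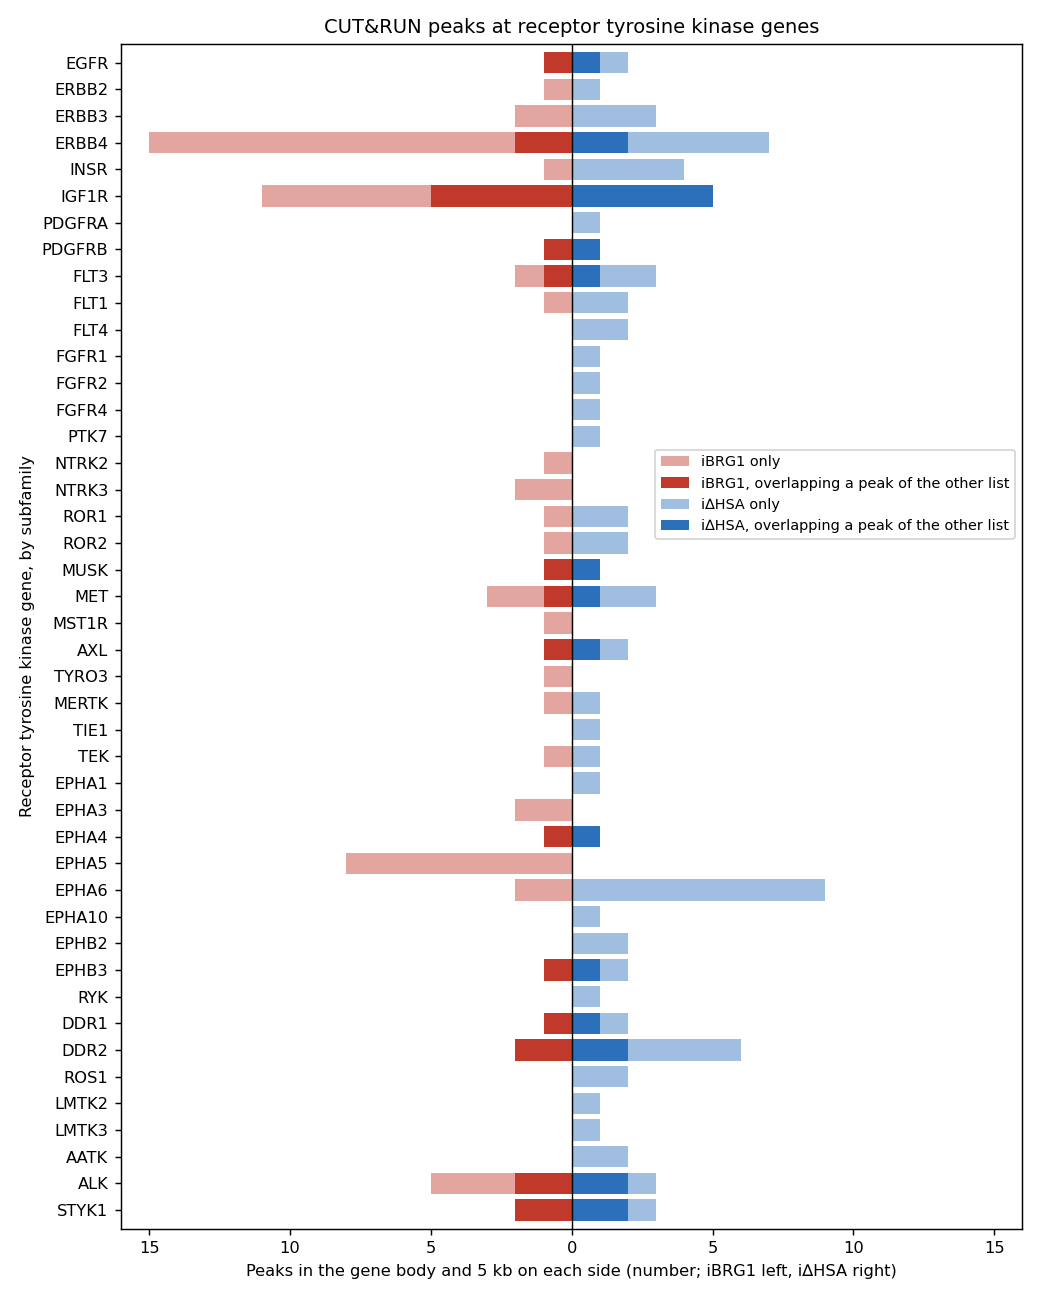
Number of peaks in the body and 5 kb flanks of each receptor tyrosine kinase gene with a peak, in subfamily order, with iBRG1 to the left and i∆HSA to the right. Dark segments are peaks that overlap a peak of the other list; ERBB4 with 15 and IGF1R with 11 have the longest iBRG1 bars, and EPHA6 with 9 has the longest i∆HSA bar.

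Long genes hold more peaks, and the receptor tyrosine kinase genes were long, with a median length of 83.5 kb (range 10.3 to 1163) against 27.2 kb for all protein-coding genes. Each gene was therefore set beside the 200 other protein-coding genes nearest to it in length. On average 61.3% of these like-length genes had an iBRG1 peak and 64.4% had an i∆HSA peak, so the 50.9% of the members with an iBRG1 peak was below the like-length value and the 66.7% with an i∆HSA peak was near it. The sum of the like-length means was 94.1 iBRG1 peaks and 91.7 i∆HSA peaks, where 73 and 85 were counted. The median percentile of the members among genes of like length was 31.5 for iBRG1 (quartiles 24.8 and 62) and 47 for i∆HSA (27.8 and 74.8). The same percentile computed for every protein-coding gene had a median of 40 for iBRG1 and 41.5 for i∆HSA. Among the 31 members under 100 kb, 10 had an iBRG1 peak (32.3%, against 42.7% of like-length genes) and 18 an i∆HSA peak (58.1%, against 51.2%). Among the 26 longer members 19 had an iBRG1 peak (73.1%, against 83.5%) and 20 an i∆HSA peak (76.9%, against 80.1%). The 24.6% of members with a shared peak was near the 24.2% of their like-length genes. The 13 members without a peak had a median length of 40.1 kb, and those with peaks in both lists had a median of 138 kb. IGF1R stood at the 99.5th percentile of its like-length genes in the iBRG1 list. ERBB3 (99.5), DDR2 (98.5) and EPHB3 (95.5) were at or above the 95th percentile in the i∆HSA list. At this level stood 1.75% of the members for iBRG1 and 5.26% for i∆HSA, against 4.29% and 4.64% of all protein-coding genes. At the other end, EPHB1, a receptor for B-type ephrins that spans 465 kb, had no peak in either list, where its like-length genes had a median of 3.5 iBRG1 and 3 i∆HSA peaks (percentiles 5.00 and 6.25).

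**Figure D2:**
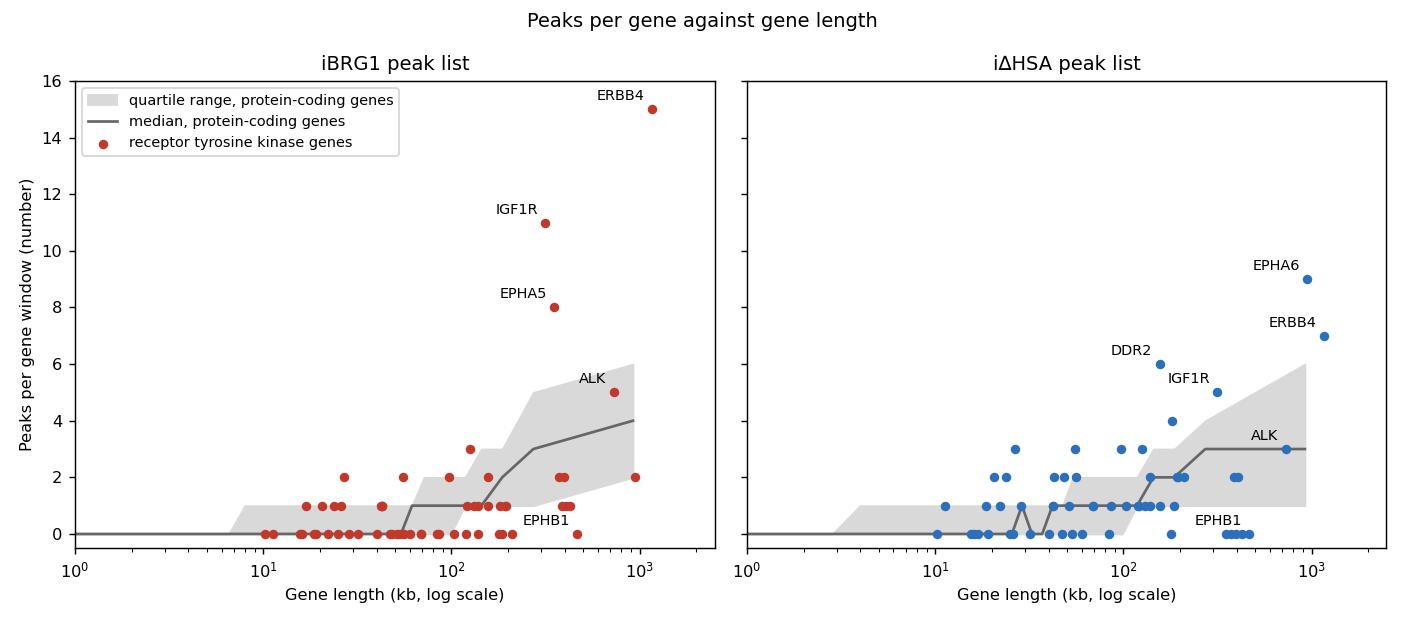
Peaks per gene window (number) against gene length (kb, log scale) for the 57 receptor tyrosine kinase genes, with iBRG1 on the left and i∆HSA on the right. The line and grey band are the median and quartile range of protein-coding genes in bins of length; ERBB4, IGF1R and EPHA5 lie above the band for iBRG1, and EPHB1 lies at 0 in both panels.

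The strongest sites used by both proteins lay in introns of the canonical transcripts of ERBB4, IGF1R and EGFR. The deposited score is a whole number on a scale that is not stated, and so these sites were ordered by rank within each list. Elsewhere the cutoffs, bins and medians use the score itself. Equal scores do not have equal ranks: a score of 5 stood at percentile 75.57 of the iBRG1 list and 63.05 of the i∆HSA list. The 5 shared sites with the highest summed rank are shown because they are the places in these genes where both lists place a high-scoring peak. Each line gives 200 bp around the midpoint of the overlap on the plus strand of hg19, and none of these windows touches an annotated exon. Capitals mark a TGACTCA or TGAGTCA heptamer, the AP-1 pattern, which occurs once in the first IGF1R window. The TEAD pattern GGAATG and the RUNX pattern TGTGGT were also searched on both strands and had no match in these windows.
ERBB4 chr2:212733165-212733364: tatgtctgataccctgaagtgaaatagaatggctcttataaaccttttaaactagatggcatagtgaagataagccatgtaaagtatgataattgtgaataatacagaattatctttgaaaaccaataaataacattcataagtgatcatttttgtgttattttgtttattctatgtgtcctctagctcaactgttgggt
IGF1R chr15:99440175-99440374: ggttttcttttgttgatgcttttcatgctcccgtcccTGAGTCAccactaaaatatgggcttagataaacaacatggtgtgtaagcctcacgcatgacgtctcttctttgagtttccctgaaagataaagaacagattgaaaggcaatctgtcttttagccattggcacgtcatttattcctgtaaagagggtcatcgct
IGF1R chr15:99343392-99343591: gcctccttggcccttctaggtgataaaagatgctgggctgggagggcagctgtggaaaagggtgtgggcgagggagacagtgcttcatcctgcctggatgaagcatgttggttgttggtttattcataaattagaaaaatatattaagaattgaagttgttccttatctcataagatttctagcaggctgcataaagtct
EGFR chr7:55132745-55132944: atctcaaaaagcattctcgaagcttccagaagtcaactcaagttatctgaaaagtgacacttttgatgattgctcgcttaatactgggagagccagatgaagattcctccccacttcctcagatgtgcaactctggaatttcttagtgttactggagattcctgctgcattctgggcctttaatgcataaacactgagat
IGF1R chr15:99433006-99433205: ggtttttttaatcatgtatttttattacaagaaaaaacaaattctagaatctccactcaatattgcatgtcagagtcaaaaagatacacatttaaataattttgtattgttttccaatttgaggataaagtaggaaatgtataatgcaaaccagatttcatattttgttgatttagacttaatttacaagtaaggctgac

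Within the full overlaps, which ran from 1173 to 2334 bp, each of the 5 sites held 1 or 2 AP-1 heptamers. Their positions were up to 713 bp from the midpoint, and they are printed with 10 bp on each side, again on the plus strand and with the heptamer in capitals.
ERBB4 chr2:212732910-212732936: tacagaatgaTGAGTCAtttctggaat
ERBB4 chr2:212733538-212733564: aatatttttcTGACTCAatttttcatt
IGF1R chr15:99440202-99440228: ctcccgtcccTGAGTCAccactaaaat
IGF1R chr15:99440449-99440475: atcagacgtgTGACTCAgcagactcca
IGF1R chr15:99343761-99343787: atacggagtgTGACTCAgcagatggga
EGFR chr7:55132994-55133020: gctttgctggTGACTCAtgcgctgtgt
EGFR chr7:55133544-55133570: caagtgaagcTGAGTCAtatggcctct
IGF1R chr15:99433466-99433492: taagacattcTGAGTCAcaggatgagg

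The heptamer was present in 12 of the 22 shared overlaps at the members (54.5%, 34.7 to 73.1) and in 1766 of the 3350 in windows of all protein-coding genes (52.7%), a comparison chosen after the values of the 5 sites were seen. The member overlaps were longer (median 1525 against 1303 bp), and among overlaps of at least 1000 bp the shares were 55% (11 of 20) and 59.3% (1338 of 2258).

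ERBB receptors bind EGF-like ligands and neuregulins, and all 4 genes of this subfamily had peaks in both lists. Of their like-length genes 64.9% had an iBRG1 peak and 69.1% an i∆HSA peak. ERBB4, the neuregulin receptor with the longest of the 57 genes (chr2, 212240442 to 213403565, minus strand), held 15 iBRG1 and 7 i∆HSA peaks. Its like-length genes had a median of 5 and 3, which placed ERBB4 at percentiles 93.0 and 74.8. The iBRG1 peak in intron 3 of 27, 670 kb from the canonical start, scored 82 and ranked 5 of 24212, and it was the highest-scoring peak at any member in that list. The i∆HSA peak over it (212732024 to 212734590) scored 43, rank 695 of 25371. A second shared site in intron 5 scored 2 in the iBRG1 list and 15 in the i∆HSA list. The other 13 iBRG1 peaks, with scores of 1 to 22, and the other 5 i∆HSA peaks, with scores of 3 to 54, had no counterpart. The i∆HSA peak of score 54 in intron 1 had a GC content of 24.7%. ERBB4 had 8 more iBRG1 than i∆HSA peaks, and 13 of its 200 like-length genes had an excess of at least that size.

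EGFR, the receptor for EGF and TGF-alpha, held a single iBRG1 peak of score 21 in intron 1, about 46.0 kb from the start, and the i∆HSA peak on it scored 18. A second i∆HSA peak of score 22 lay alone in intron 27. The EGFR iBRG1 peak stood at percentile 97.3 of its list by score, whereas by number of peaks the gene stood at percentiles 27.75 (iBRG1) and 47.25 (i∆HSA) of its like-length genes. ERBB3, a kinase-impaired partner of ERBB2, had 2 iBRG1 peaks (scores 3 and 1) and 3 i∆HSA peaks (8, 5 and 2), none of them shared. The i∆HSA peak of score 8 lay at its canonical start, whereas the iBRG1 peaks lay 8.16 kb upstream and 19.2 kb downstream of it. The i∆HSA peak of score 5 over its 3' end also covered the promoter of the neighbouring PA2G4. ERBB2, which has no known ligand and pairs with the other receptors, had 1 peak in each list at different upstream starts, with scores of 3 and 8, and both overlapped PGAP3.

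In the insulin receptor subfamily, IGF1R, the receptor for insulin-like growth factors (chr15, 99191768 to 99507759, plus strand), held 11 iBRG1 peaks with scores from 1 to 20, equal to the highest number among its like-length genes. It held 5 i∆HSA peaks with scores of 43, 38, 25, 16 and 8, and all 5 overlapped an iBRG1 peak. Among genes with at least 5 i∆HSA peaks, 0.375% (2 of 533) had every one of them shared, and IGF1R was the 1 of 4 members that did. This criterion was set after the values were seen. The 5 pairs lay between 80.7 and 249 kb from the canonical start in introns 2 to 4, and their iBRG1 scores were 9, 2, 13, 15 and 20 in that order. The pairs with iBRG1 scores of 15 and 20 also count as promoter peaks, by transcript starts other than the canonical one. The other 6 iBRG1 peaks scored between 1 and 7. INSR, the insulin receptor, had 1 iBRG1 peak of score 1 and 4 i∆HSA peaks of scores 11, 10, 5 and 5, of which that at the canonical start scored 5. INSRR, a pH-sensing relative, had no peak.

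**Figure D3:**
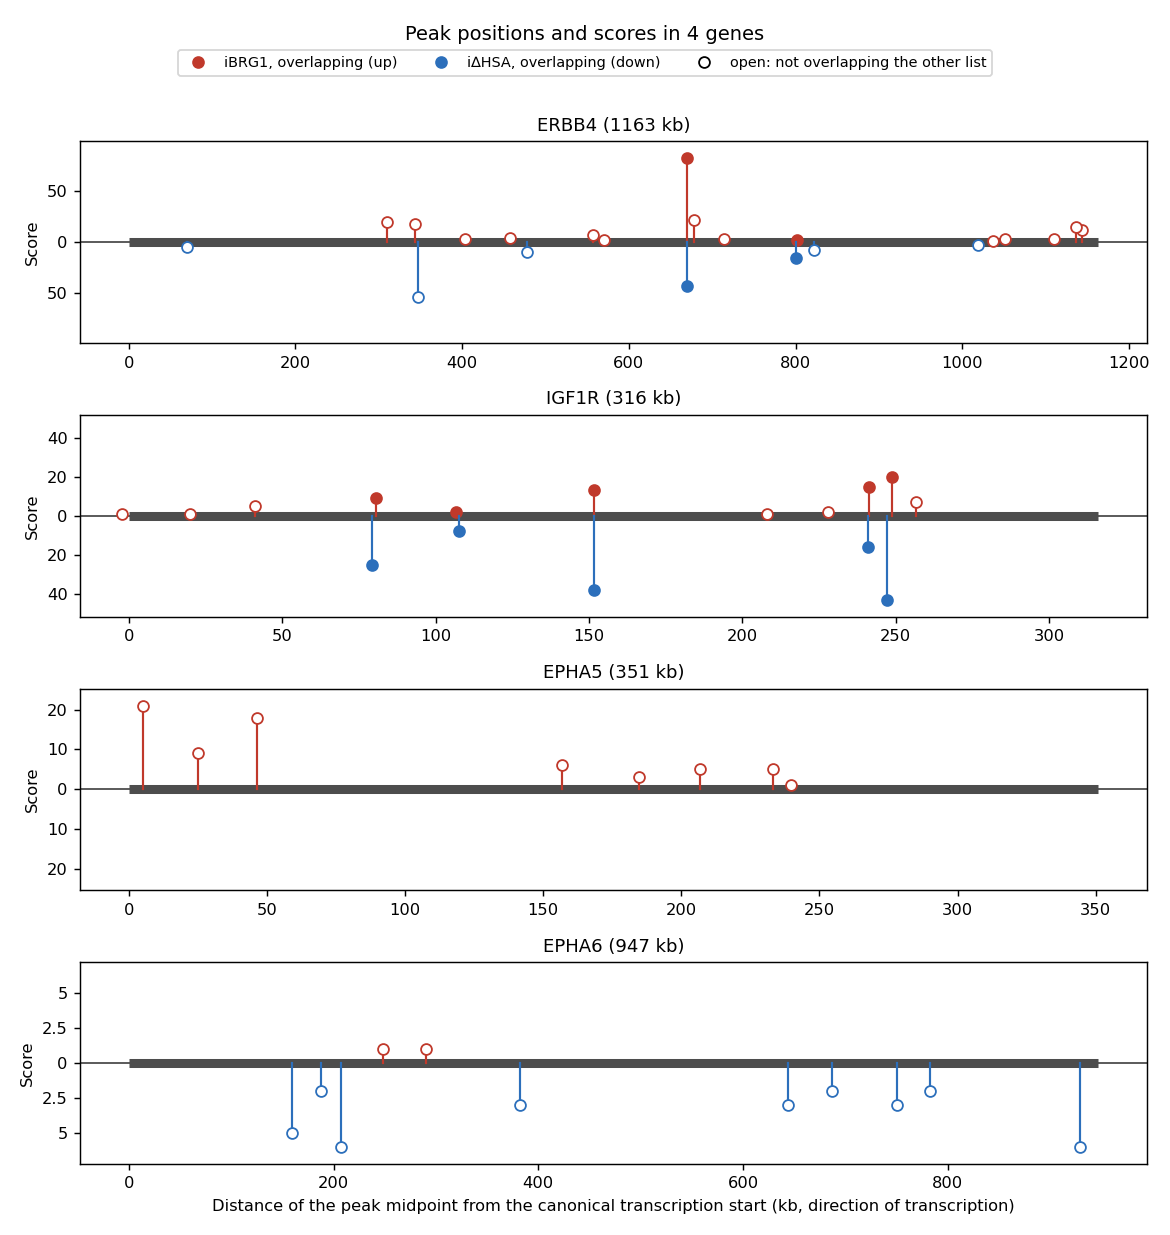
Peak score (authors' score, iBRG1 up and i∆HSA down) against the distance of the peak midpoint from the canonical transcription start (kb) in ERBB4, IGF1R, EPHA5 and EPHA6, with the gene body as a grey bar. Filled points overlap the other list; all 5 i∆HSA peaks of IGF1R are filled, EPHA5 has 8 iBRG1 peaks and no i∆HSA peak, and the score axis differs between genes.

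The Eph receptors, which bind membrane-anchored ephrins and guide axons and cell sorting, are the largest subfamily with 14 genes here, and 5 of them had an iBRG1 peak (35.7%, against 61.7% of like-length genes) and 6 an i∆HSA peak (42.9%, against 62.7%). EPHA5 (chr4, 66185281 to 66536213, minus strand) held 8 iBRG1 peaks with scores of 21, 18, 9, 6, 5, 5, 3 and 1, all in introns, and no i∆HSA peak. It was the only member with at least 3 iBRG1 peaks and 0 i∆HSA peaks, a pattern that 1.03% of protein-coding genes and 9 of its 200 like-length genes had. At the more extreme cutoff of 8 against 0, set after its values were seen, 3 of the 20144 protein-coding genes qualified (CNTN5, EPHA5 and RNF217) and none of the 200 like-length genes did. Of the 8 peaks, 6 had a score of at least 5. The opposite pattern, at least 3 i∆HSA peaks and 0 iBRG1 peaks, was found at 0 members and 1.22% of protein-coding genes. The AP-1 heptamer lay within 100 bp of the midpoint of 2 of the 8 EPHA5 peaks, of scores 5 and 21 in introns 5 and 1, and is shown because these peaks had no i∆HSA counterpart (plus strand, heptamer in capitals).
EPHA5 chr4:66329413-66329439: gtctacaaggTGAGTCAtacagaaatc
EPHA5 chr4:66530848-66530874: acattaaattTGACTCAtaaaaaggat

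EPHA6 (chr3, 96533425 to 97480376) showed the opposite excess, with 9 i∆HSA peaks against 2 iBRG1 peaks and no overlap between them. Its scores were low, from 2 to 6 for i∆HSA and 1 for both iBRG1 peaks, and 9 of its 200 like-length genes had an excess of i∆HSA peaks at least as large. EPHA5 and EPHA6 were thus opposite in the balance of the lists, whereas EPHA4 and EPHB3 had a site in both. The EPHA4 peaks (scores 2 and 2) and the EPHB3 peaks (scores 4 and 7) covered the canonical promoter. EPHB3 had a further i∆HSA peak of score 3 in intron 1. EPHA3 had 2 iBRG1 peaks (scores 2 and 1), EPHB2 had 2 i∆HSA peaks (4 and 3), and EPHA1 and EPHA10 had 1 i∆HSA peak each. EPHA2, EPHA7, EPHA8, EPHB1, EPHB4 and EPHB6 had none in either list.

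The EPHB3 promoter is shown because it is covered by a peak of both lists and its 200 bp before the canonical start contain no annotated exon. On the plus strand of hg19 it had a GC content of 74% and 1 GGGCGG, the SP/KLF pattern, in capitals. This hexamer, on either strand, occurs in the same 200 bp window of 11221 of 19863 protein-coding genes (56.5%).
EPHB3 chr3:184279373-184279572: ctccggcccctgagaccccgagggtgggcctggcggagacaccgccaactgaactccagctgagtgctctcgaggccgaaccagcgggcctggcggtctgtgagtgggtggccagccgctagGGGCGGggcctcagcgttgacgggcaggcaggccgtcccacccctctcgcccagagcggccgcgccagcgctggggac

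The discoidin domain receptors, which bind collagen, both had shared peaks, where on average 21% of their like-length genes had one. DDR2 (chr1, 162601163 to 162757195) held 2 iBRG1 peaks in intron 2 with scores of 9 and 4, and both were shared. It held 6 i∆HSA peaks with scores from 2 to 6, where its like-length genes had a median of 2, and one of these also covered the promoter of HSD17B7 downstream. DDR1 had 1 iBRG1 peak (score 2) at its canonical promoter, shared with 1 of 2 i∆HSA peaks (scores 4 and 3).

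ALK, a receptor best known from lymphoma and lung cancer fusions (chr2, 29415640 to 30144452, minus strand), held 5 iBRG1 peaks with scores of 21, 14, 4, 2 and 2 and 3 i∆HSA peaks with scores of 9, 8 and 5. Its shared sites were in intron 11 of 28 (scores 21 and 5) and at the 3' end (14 and 8), the latter also overlapping CLIP4. By number it stood at percentiles 62 and 56 of its like-length genes. LTK, its relative, had no peak. STYK1 had 2 iBRG1 peaks (scores 5 and 2), both shared, and 3 i∆HSA peaks (7, 5 and 4). The higher-scoring shared site was at the promoter of the neighbouring MAGOHB.

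Among the PDGFR subfamily, PDGFRB had 1 shared site in intron 1 with a score of 5 for iBRG1 and 27 for i∆HSA, and FLT3, a cytokine receptor of blood progenitors, had 1 shared site past its 3' end with scores of 1 and 47. MUSK, the agrin-responsive kinase of the neuromuscular junction, had a shared site in intron 3 with scores of 3 and 60, the latter the highest i∆HSA score at any member. The MUSK peaks were extremely AT-rich, with a GC content of 14.6% for iBRG1 and 8.09% for i∆HSA, and the FLT3 i∆HSA peak had 19.8%. The 3 i∆HSA member peaks under 25% GC, at MUSK, ERBB4 and FLT3, were the 3 highest-scoring of the 85. In protein-coding gene windows 420 of 15579 i∆HSA peaks were under 25% GC. Whether base composition has a part in these scores was not tested. PDGFRA had 1 i∆HSA peak of score 4, and CSF1R and KIT had no peak. Among the VEGF receptors FLT1 had 1 iBRG1 and 2 i∆HSA peaks, FLT4 had 2 i∆HSA peaks and KDR had none.

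The FGF receptors had no iBRG1 peak, where on average 49.25% of their like-length genes had one. FGFR1, FGFR2 and FGFR4 each had 1 i∆HSA peak, with scores of 2, 5 and 3. Those of FGFR2 and FGFR4 overlapped the 1 kb on each side of the canonical start. The neurotrophin receptors had the opposite, with 1 iBRG1 peak at NTRK2 and 2 at NTRK3 (scores 3, 2 and 1) and no i∆HSA peak. The genes are 427 and 397 kb long, and 83.75% of their like-length genes had an i∆HSA peak. The LMR kinases LMTK2, LMTK3 and AATK had 4 i∆HSA peaks between them, of scores 3 to 11, and no iBRG1 peak. Of their like-length genes 51.7% had an iBRG1 peak. With so few peaks, of which most have low scores, these subfamily counts are values only.

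MET, the HGF receptor, held 3 peaks in each list (scores 4, 3 and 2 for iBRG1 and 9, 8 and 6 for i∆HSA), of which 1 pair overlapped and was centred in intron 14, about 100.4 kb from the start. Its relative MST1R had 1 iBRG1 peak of score 1. The TAM receptors, which clear apoptotic cells, had 1 iBRG1 peak each, of which that of AXL was shared and lay at the promoter of HNRNPUL1, the next gene. AXL also had a list-only i∆HSA peak of score 3 in intron 4. TYRO3 had its peak (score 3) centred 1.32 kb upstream of the canonical start, at the edge of the 1 kb counted as promoter. MERTK had peaks of both lists in neighbouring introns that did not overlap. ROR1 and ROR2, receptors for WNT5A, had 1 iBRG1 and 2 i∆HSA peaks each, none shared. TEK had 1 peak in each list (scores 2 and 12). TIE1, RYK and PTK7 had 1 i∆HSA peak each, ROS1 had 2, and RET had none.

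At promoters, here 1 kb upstream and downstream of every annotated transcript start, most members marked by iBRG1 were also marked by i∆HSA. An iBRG1 promoter peak was found at 8 members (14.0%, 7.29 to 25.3, against 18.2% of protein-coding genes) and an i∆HSA promoter peak at 15 (26.3%, 16.6 to 39.0, against 20.9%). Of the 8 iBRG1 members, 7 also had an i∆HSA promoter peak: ERBB2, ERBB3, IGF1R, MET, EPHA4, EPHB3 and DDR1 (12.3%, against 7.70%). Over all protein-coding genes, 1551 of the 3664 with an iBRG1 promoter peak also had one of i∆HSA. With scores of at least 5, promoter peaks were left at 1 member for iBRG1 and 9 for i∆HSA. That filter kept 29.4% of the iBRG1 and 42.3% of the i∆HSA peaks in protein-coding gene windows. The share of other genes was not computed with it, so these counts are values only. Without that filter, the promoter peaks of the lists overlapped each other at 4 of the 7 members with both (IGF1R, EPHA4, EPHB3 and DDR1). At MET the iBRG1 promoter peak overlapped an i∆HSA peak that lay outside a promoter window. Many of these starts belong to shorter or alternative transcripts. At the start of the canonical transcript, a stricter choice made after the values were seen, 5 members had an iBRG1 peak (8.77%, against 11.8% of protein-coding genes) and 10 had an i∆HSA peak (17.5%, against 14.4%), and EPHA4, EPHB3 and DDR1 had both. By peaks, 10 of the 73 in the iBRG1 list (13.7%) and 18 of the 85 in the i∆HSA list (21.2%) were at a promoter of the member itself. Of the peaks in protein-coding gene windows, 23.2% and 26.0% were at promoters, but there a promoter of any protein-coding gene counted. The measures are therefore unlike, and gene length was not matched. At the promoter of another protein-coding gene were 3 iBRG1 and 5 i∆HSA member peaks, some of them also at the member's own.

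Most member peaks lay in introns, with 53 of 73 for iBRG1 (72.6%) and 50 of 85 for i∆HSA (58.8%). Over all protein-coding gene windows, with a peak counted once for each gene, the intron shares were 54.7% and 51.2%, and at genes of like length they were 70.5% and 66.5%. Of the peaks centred in an intron of the canonical transcript, 15 of 59 (25.4%) and 14 of 61 (23.0%) were in the first, against 27.0% and 24.8% at genes of like length. Outside promoters, 5 iBRG1 and 9 i∆HSA peaks lay over a coding or noncoding exon. Another protein-coding gene was overlapped by 4 iBRG1 and 11 i∆HSA peaks, and these cannot be assigned to 1 of the 2 genes. The exon and neighbour counts have no share over other genes beside them, so they are values only.

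**Figure D4:**
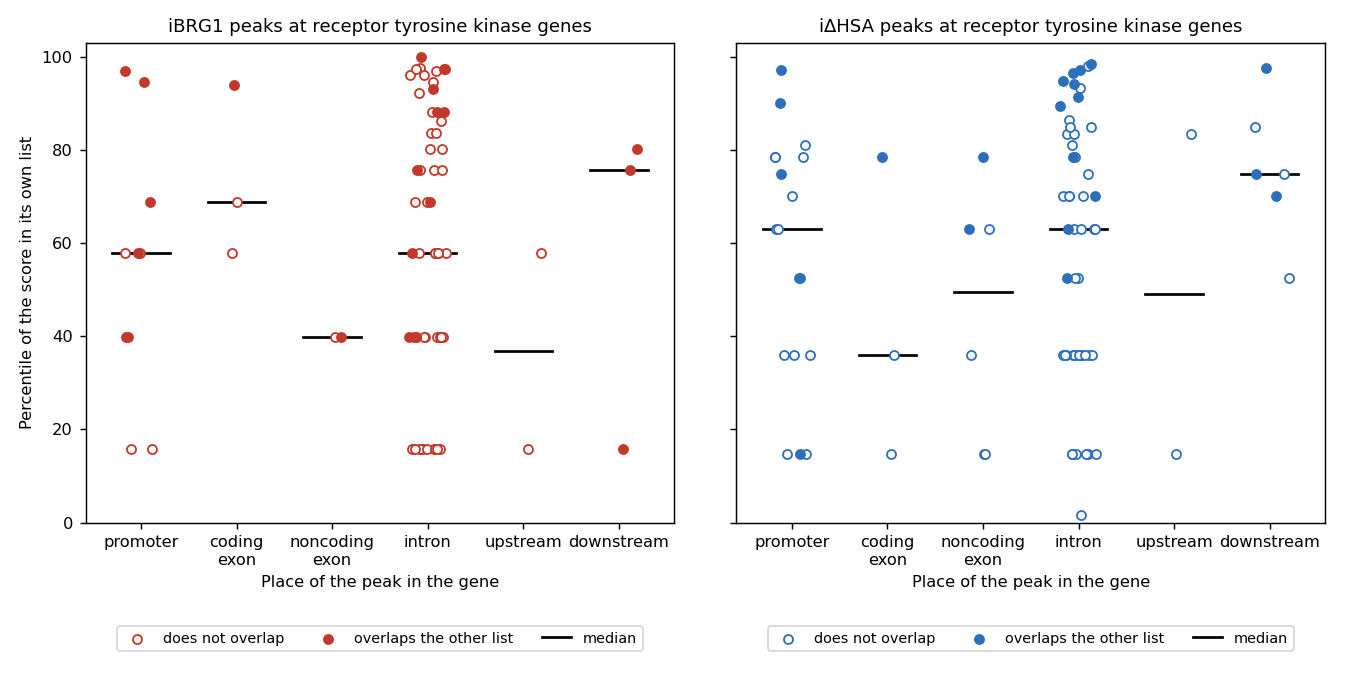
Percentile of the peak score within its own list against the place of the peak for the 73 iBRG1 peaks (left) and the 85 i∆HSA peaks (right) at receptor tyrosine kinase genes, with filled points for peaks that overlap the other list and a bar at the median. Introns hold 53 and 50 of the peaks and reach the top of the range, and of the introns' peaks 11 in each list are filled.

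Peaks with higher scores were more often shared in both lists. The shared peaks were 22 of 73 for iBRG1 (30.1%, 20.8 to 41.4) and 22 of 85 for i∆HSA (25.9%, 17.8 to 36.1), where 22.4% and 21.6% of peaks in protein-coding gene windows were shared. Among iBRG1 peaks with a score of 0 to 4, 22.2% were shared, against 35.7% at 5 to 9 and 50% at 10 or more. For i∆HSA the shares were 8.11%, 31.0% and 52.6%. The shares in protein-coding gene windows were 13.8%, 31.7% and 58.6% for iBRG1 and 9.86%, 26.5% and 53.8% for i∆HSA. Shared iBRG1 peaks had a median score of 5 against 3 for those without a counterpart, and shared i∆HSA peaks a median of 8 against 4. Of the 22 shared iBRG1 peaks, 13 had a higher percentile in the i∆HSA list than in their own.

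The properties of the member peaks are given beside those of all peaks in protein-coding gene windows. Their median score was 3 for iBRG1 and 5 for i∆HSA, against 3 and 4 in those windows, and a score of at least 5 was held by 38.4% and 56.5% of them, against 29.4% and 42.3%. A peak of that score was found at 11 members in the iBRG1 list (19.3%, against 18.1% of protein-coding genes) and at 24 in the i∆HSA list (42.1%, against 28.2%). Among genes of like length these shares were 28.3% and 39.5%, and by number of such peaks the members had a median percentile of 41.25 for iBRG1 and 38.75 for i∆HSA. The median width was 1726 and 1689 bp against 1418 and 1381 bp, and the median GC content was 37.4% and 41.1% against 39.1% and 39.3%. In the 100 bp on each side of the midpoint, the AP-1 heptamer was present in 6.85% of the iBRG1 and 7.06% of the i∆HSA member peaks, against 8.80% and 6.34% in protein-coding gene windows. GGAATG was present in 11.0% and 8.24% (against 12.1% and 10.7%), and TGTGGT in 13.7% and 9.41% (against 12.4% and 12.4%). GGGCGG was present in 2 iBRG1 and 9 i∆HSA peaks (2.74% and 10.6%, against 6.19% and 7.43%). The ETS pattern CCGGAA was present in 0 and 3 peaks (0% and 3.53%, against 2.27% and 2.54%). TGACGTCA, the CRE pattern, was present in none of them (against 0.134% and 0.218%).

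Genes that act with the receptors were counted in the same way, from lists of 59 ligands, 22 adaptors and 20 inhibitors. These lists were chosen with earlier results of these data known. Ligand genes with an iBRG1 peak numbered 26 of 59 and those with an i∆HSA peak 30, with 81 and 72 peaks, and 13 had a shared peak. These were 44.1%, 50.8% and 22.0% of the ligands, against 44.0%, 49.1% and 16.2% of all protein-coding genes and 50.4%, 54.7% and 18.9% of genes of like length. Of the adaptors 11 of 22 had an iBRG1 peak (50%, like-length 61.7%) and 13 an i∆HSA peak (59.1%, like-length 65.0%), and 3 had a shared peak (13.6%, like-length 22.3%). Of the inhibitors, such as the Sprouty proteins and the CBL ubiquitin ligases, 9 of 20 had an iBRG1 peak (45%, like-length 51.2%) and 12 an i∆HSA peak (60%, like-length 55.0%), and 5 had a shared peak (25%, like-length 20.1%). Among the ligands NRG1, which binds ERBB3 and ERBB4, held 15 iBRG1 and 14 i∆HSA peaks, of which 2 iBRG1 peaks were shared. NRG3, which binds ERBB4, held 12 and 2. EFNA5, a ligand of EPHA5, held 6 in each list with 3 shared, while EPHA5 itself had peaks in the iBRG1 list alone. NRG1, NRG3 and EFNA5 are long genes, of 1216, 1112 and 294 kb. The genes of like length to ERBB4 (1163 kb) had a median of 5 iBRG1 and 3 i∆HSA peaks and at most 26 and 24. These ligands were not picked by a rule set beforehand, and their counts are values only.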

How the data were processed

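CUT&RUN was performed with anti-V5 on 300000 SW-13 cells per sample, with digestion for 30 min and 12 PCR cycles. The methods and the submitters' processing notes name Cutadapt, Bowtie2, Picard, SAMtools and MACS2 2.2, removal of negative-control peaks and a score minimum of 5. The deposited lists nevertheless hold lower scores. The score deposited by the authors is a whole number of unstated scale, and pooling of the replicates is not stated. No per-sample column was left unmapped. Vehicle-treated cells were not analysed here.

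Peaks were placed on hg19, the build in the processing notes, with GENCODE release 44 (0 peaks ended beyond a chromosome). Places were assigned in the order promoter, coding exon, noncoding exon, intron and flank. Percentiles were mid-ranks among 200 genes of like length. Patterns were searched on both strands. Python 3.11.15, samtools 1.23.1, pysam 0.24.0, pandas 2.3.3, numpy 2.4.6, matplotlib 3.10.9 and scipy 1.17.1 were used, and the counting was tested on simulated peaks. The genes and lists were chosen with earlier results of these data known. Genes given in full had the 10 highest-scoring member peaks of a list, promoter peaks in both lists, the 5 highest peak numbers of a list, at least 3 peaks against 0, or a like-length percentile of at least 95 or at most 5. No test was run, because there was 1 list per construct. Intervals are 95% Wilson intervals.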

Additional observations from a re-analysis of the deposited data

How the results depend on the processing

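There was no value per replicate, so no replicate could be left out, and the depth behind a peak is unknown. No paired analysis was possible because the replicates were not separate in either list. Of 87 alternative values computed for 16 results, 72 kept within the stated limits (1.5 times for a count, the Wilson interval for a share) and 15 moved. Keeping scores of at least 5 left 28 iBRG1 and 48 i∆HSA peaks at 11 and 24 members, peaks of both lists at 9 and shared peaks at 7. With this filter the promoter share of iBRG1 peaks was 7.14%, promoter peaks were found at 1 and 9 members, and the median iBRG1 percentile was 41.25 in place of 31.5. Fewer peaks remain by construction, and the filter kept 29.4% of the iBRG1 and 42.3% of the i∆HSA peaks in protein-coding gene windows. The start of the canonical transcript only, chosen after seeing the data, gave promoter shares of 6.85% and 11.8% and 5 members with an iBRG1 promoter peak. Searching the whole peak for the AP-1 heptamer gave 53.4% and 32.9%, as a longer stretch is searched, against 42.1% and 32.1% in protein-coding gene windows.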

Other observations

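Some receptor genes had peaks of both lists that lay close together without overlapping. Of the 51 iBRG1 member peaks without a counterpart, 4 were within 2 kb of an i∆HSA peak (7.84%, against 3.09% of such peaks in protein-coding gene windows), at MERTK, ERBB4, MET and ROR2. Of the 63 i∆HSA member peaks without a counterpart, 3 were within 2 kb of an iBRG1 peak (4.76%, against 2.83%), at MERTK, ERBB4 and ROR2. The distance of 2 kb was chosen after the values were seen. At ROR2, a WNT5A receptor, the iBRG1 peak (chr9, 94556691 to 94558568, score 6) and the i∆HSA peak (94558697 to 94560670, score 11) both lay in intron 1. PDGFRA, KIT and KDR, neighbours on chromosome 4 that bind PDGF, stem cell factor and VEGF, had 0 iBRG1 peaks and 1 i∆HSA peak among them. Of their like-length genes 58%, 64.5% and 50% had an iBRG1 peak and 58.5%, 63.5% and 54% an i∆HSA peak. This grouping was not set beforehand, and its counts are values only.

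Among the signalling partners, FGF2, a ligand of the FGF receptors, held 5 iBRG1 and 3 i∆HSA peaks with top scores of 20 and 32, whereas the FGF receptor genes held no iBRG1 peak. CBL, a ubiquitin ligase that sends activated receptors to degradation, held 4 and 5 peaks with top scores of 18 and 50. SPRED2, an inhibitor of RAS signalling, held 3 and 4 peaks with top scores of 17 and 27. PDGFD, a ligand of PDGFRB, held 7 iBRG1 peaks and 1 i∆HSA peak, and GAB2, an adaptor, held 7 and 3. These 5 genes were picked from their lists after their values were seen.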
